A study of Mus musculus with 6 samples.

Results

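The genes described here lie around Nkx6-1 on mouse chromosome 5. They are the genes of the arrays whose probes start within 20 Mb of the Nkx6-1 probe in the mm9 coordinates of the files, on either side. Nkx6-1 itself and 8 neighbours named in the selection rule (Sult1d1, Bmp3, Hpse, Agpat9, Tgfbr3, Pde6b, Slc26a1 and Acacb) were set aside. This gave 702 of 39429 probes, which carry 565 of 31829 gene names. The arrays measured RNA from pancreatic islets of male mice aged 6 weeks. Control mice were Nkx6.1fl/+;Pdx1-CreERTM and mutant mice were their Nkx6.1fl/-;Pdx1-CreERTM littermates, so that both groups carried 1 floxed allele of Nkx6-1 and the tamoxifen-activated Pdx1-CreERTM recombinase. The mutants (Nkx6.1fl/-) had a null allele where the controls had a wild-type one. All mice came from Nkx6.1-flox stock on a mixed FVB/N and C57Bl/6J background, crossed to Pdx1-CreERTM stock on a mixed Cd1 and C57Bl/6J background, and had been injected with tamoxifen (2 mg per 25 g of body weight) 4 times from the age of 4 weeks. Each group had 3 samples, A to C, and each sample pooled 2 pancreata, so p-values describe the spread between these pools.

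Nkx6-1 is a homeodomain transcription factor of the beta cell, known for its part in beta cell identity and insulin secretion. A targeted allele is inherited together with the chromosome that flanks it, and genes near it can therefore differ between littermates in their sequence as well as in the activity of the targeted gene. The labels do not give the strain in which the null allele was made. In this cross a response to the loss of Nkx6-1 and a difference that came with the flanking chromosome cannot be told apart for any gene near the locus. The null allele was also present before tamoxifen was given. The comparison of mutant with control arrays by position asks whether the genes near Nkx6-1 differed more often, or by more, than genes elsewhere.

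The region holds genes of many functions, among them the Cxcl chemokines, the albumin family, UDP-glucuronosyltransferases, guanylate-binding proteins, oligoadenylate synthetases and beta-crystallins. The probes that the results turn on are shown by the first 30 of their 60 bases, 5′ to 3′, as designed by the manufacturer and without a marked motif. They are those of Nkx6-1, of Cds1, a close neighbour on the higher side, and of the 7 genes that passed the threshold below.
Rasgef1b: tcaacaggcttggcctgtctccaagttgtc
Tmem150c: acagcccggaatgtaatgtggaaaacgttg
Nkx6-1: cagtatcctggctgctcgccgggcctttac
Cds1: gcgagttctttaacaacaacactctagtaa
Dipk1a: aacgttattgtggaagaaaatttcctacac
Ttc28: ggcgcttggcccttcctttgtgattcagtg
Sez6l: cccaggtcatctcttgactattgggggagg
Tesc: gtggtgtgtgggactccgatatttttatct
Hectd4: atatgattgtcaataaagcatgtcagcaaa
In mm9 these probes lie at chr5:99646448-99646507 (Rasgef1b, minus strand), chr5:100507436-100507495 (Tmem150c, minus), chr5:102088319-102088378 (Nkx6-1, minus) and chr5:102252307-102252366 (Cds1, plus). The others lie at chr5:108338406-108338465 (Dipk1a, minus), chr5:111718740-111718799 (Ttc28, plus), chr5:112849146-112849205 (Sez6l, minus), chr5:118511820-118511879 (Tesc, plus) and chr5:121704694-121704753 (Hectd4, plus). Dipk1a stands in the files as Fam69a and Hectd4 as EG545802.

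Values are log2 signals relative to the 75th percentile of their array, and differences are mutant minus control. A gene was tested where all 3 arrays of the controls, of the mutants or of both called its probe well above background, which held for 388 of the 565 gene names. The remaining 177 were too dim. Of the 388, 335 were above background on all 6 arrays, and the rest passed through 1 group only, so counts over the tested genes describe them and support no claim about the whole region. The share of the region's probes above background was 70.9% to 73.8% on the control arrays and 63.7%, 60% and 71.1% on mutant arrays A, B and C, so mutant arrays A and B had a higher floor for dim genes. The insulin gene Ins1 read 7.68 to 8.28 over the arrays. The mean of 10 beta cell markers, relative to the controls, was 0.03, -0.01 and -0.01 in controls A, B and C and -0.60, -0.65 and -0.64 in mutants A, B and C, and 3 of them (Ucn3, Slc2a2 and Slc30a8) passed the threshold given below. The markers did not all go 1 way. Ins1, Ins2 and Iapp differed by 0.26, 0.25 and 0.26 (mutant minus control), and Pdx1 and Mafa by -0.388 and -0.765, with none of these past the threshold. The median differences of 6 alpha cell and 3 delta cell markers were 0.47 and 0.74, with none past it. Acinar digestive enzyme markers, which come from the exocrine pancreas, were also bright and uneven: the mean of 25 tested markers, on the same scale, was -0.30, -0.06 and 0.35 in the controls and -0.83, 0.94 and 1.83 in the mutants. In whole islets, fewer cells of a type and less RNA per cell cannot be told apart.

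The Nkx6-1 probe itself read 4.79, 4.85 and 4.64 in controls A, B and C and 4.32, 4.06 and 4.45 in mutants A, B and C. Every mutant array lay below every control array. The difference of -0.48 ± 0.14 (SE, n = 3 per group) had an adjusted p of 0.131 in limma and missed the threshold. The labels do not say which part of the gene is floxed, so a probe outside the deleted part would not check the genotype.

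Of the 388 tested genes near Nkx6-1, 7 passed the threshold (limma, adjusted p under 0.05 over all 22775 gene names tested), 4 higher and 3 lower in mutants. That is 1.8% of them, beside 2.53% of all gene names tested (1.41% higher and 1.12% lower) and 2.95% of the 983 tested on the rest of chromosome 5. The 8 genes set aside by name had all passed the threshold, and with them the count was 15 of 396, or 3.79%. The arrays of the groups did not overlap for 108 of the 388 genes (27.8%), 45 higher and 63 lower, beside 26.3% of all gene names (12.3% higher and 14% lower). A difference of at least 2-fold, with no test, was seen for 17 (4.38%), beside 4.82% of all. The median difference was -0.04, with quartiles at -0.27 and 0.17, beside -0.03 over all gene names, and the median absolute difference was 0.24 beside 0.22. The rule itself lowered the share past the threshold, since the 8 neighbours that it set aside had all passed. With them back, 29.3% of the genes did not overlap and 5.56% differed at least 2-fold. By the measures other than the share past the threshold, the tested neighbours of Nkx6-1 as a whole lay near the background of the arrays. No test of the group was made.

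**Figure D1:**
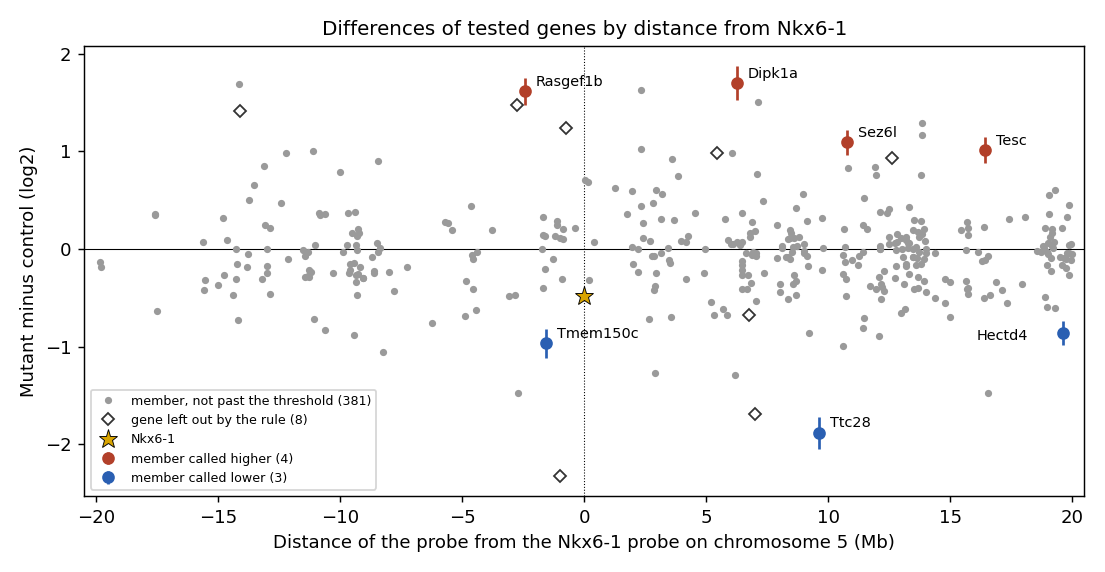
Log2 difference (mutant minus control) of each tested gene against the distance of its probe from the Nkx6-1 probe in Mb, with SE bars on the 7 genes past the threshold, open diamonds for the 8 genes set aside and a star for Nkx6-1. The 7 genes lie between -2.44 and 19.62 Mb, on both sides of the zero line, among 381 that did not pass.

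Rasgef1b, Dipk1a, Sez6l and Tesc rose in the mutants. Rasgef1b, which encodes an exchange factor for Ras-family GTPases, lies at -2.44 Mb (a minus sign marks a lower coordinate than Nkx6-1). It read -1.11, -1.31 and -1.46 in controls A, B and C and 0.21, 0.48 and 0.27 in mutants A, B and C. All mutant arrays were above all control arrays, and the rise was 1.61 ± 0.14 (SE), or 3.06-fold (limma, adjusted p = 0.0125). Dipk1a, at 6.25 Mb, encodes a membrane protein of the endoplasmic reticulum from the divergent protein kinase family. It read -3.44, -3.47 and -3.95 in the controls and -2.08, -1.87 and -1.81 in the mutants. The groups were separated by more than a log2 unit, and the rise was 1.70 ± 0.17, or 3.24-fold (adjusted p = 0.0171).

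Sez6l, at 10.76 Mb, encodes a transmembrane protein known mainly from neurons. Its signal was -1.98, -2.28 and -2.09 in the controls and -1.15, -0.92 and -1.0 in the mutants. The lowest mutant array was clearly above the highest control array, and the rise was 1.09 ± 0.13, or 2.13-fold (limma, adjusted p = 0.0212). Tesc, at 16.42 Mb, encodes tescalcin, an EF-hand calcium-binding protein. Its signal was -0.56, -0.60 and -0.78 in the controls and 0.21, 0.58 and 0.32 in the mutants. Again the groups did not overlap, and the rise was 1.01 ± 0.14, or 2.02-fold (adjusted p = 0.0283).

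Ttc28, Tmem150c and 1 of 2 names matched to Hectd4 fell. Ttc28, a tetratricopeptide repeat protein linked to cell division, lies at 9.63 Mb and read 2.11, 2.60 and 2.56 in the controls against 0.64, 0.58 and 0.41 in the mutants. The mutant arrays were close together and far below the controls, with a fall of 1.88 ± 0.17, or 3.68-fold (limma, adjusted p = 0.0138). A neighbouring Ttc28 probe differed by -2.11 ± 0.23 (adjusted p = 0.0178 over probes), and a dim probe towards the start of the gene by -0.45 ± 0.24 (adjusted p = 0.355). Tmem150c, also called tentonin 3, a membrane protein studied in mechanosensation, lies at -1.58 Mb and read -1.93, -1.72 and -1.46 in the controls and -2.60, -2.62 and -2.78 in the mutants. The groups did not overlap, and the mutants were 1.95-fold lower (adjusted p = 0.0386). The probe named EG545802, at 19.62 Mb, matched Hectd4, a gene of the HECT ubiquitin ligase family, by RefSeq. It read -3.02, -3.18 and -3.02 in the controls and -3.79, -3.89 and -4.11 in the mutants, 1.81-fold lower (adjusted p = 0.0335). The other file name that matched Hectd4, AU042671, differed by -0.20 (adjusted p = 0.295), so the fall of Hectd4 rests on 1 of its 2 names.

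**Figure D2:**
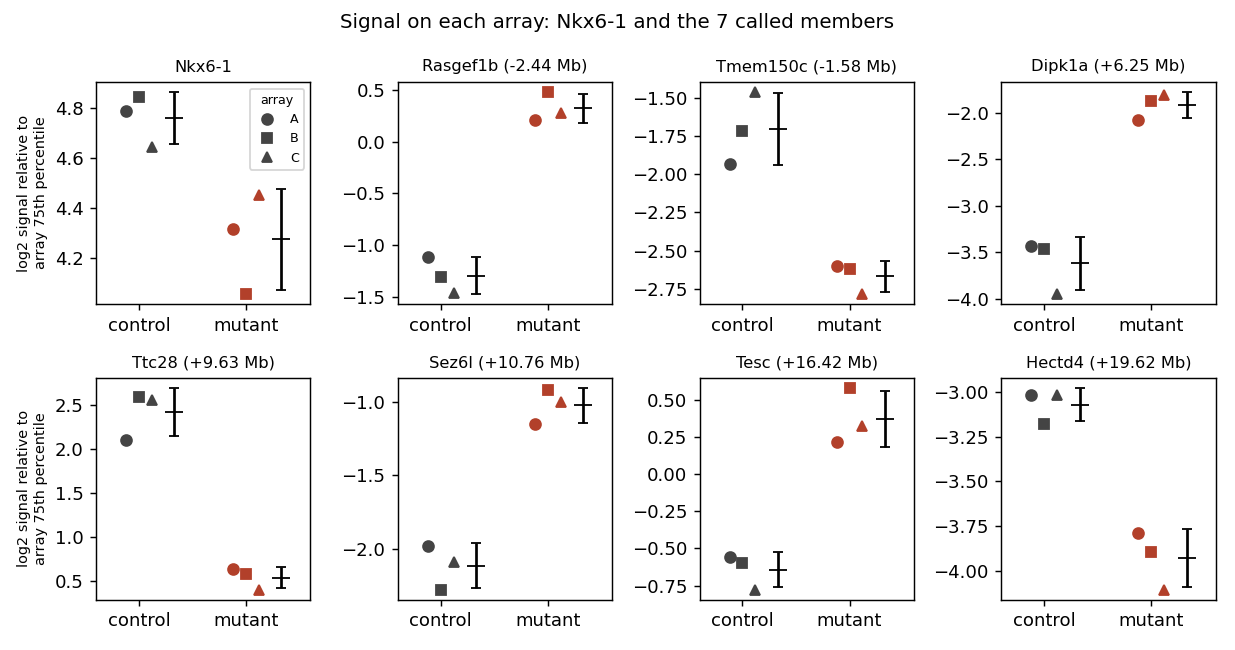
Log2 signal of Nkx6-1 and of the 7 genes past the threshold on each array, relative to the 75th percentile of the array, with the mean and SD of each group of 3; letters mark samples and the vertical axes differ in range. In each of the 8 panels the control and mutant arrays do not overlap.

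All 7 genes were above background on all 6 arrays. Slide 1 held control A with mutants B and C, and slide 2 held controls B and C with mutant A. Within each slide the 7 genes kept their direction, with Rasgef1b at 1.49 and 1.60 and Ttc28 at -1.62 and -1.94 on slides 1 and 2, and with slide as a block in limma all 7 passed, with adjusted p from 0.0157 to 0.0477. The calls depended on single arrays: without control C or mutant B no tested gene near Nkx6-1 passed in limma (52 and 53 had an unadjusted p under 0.05). Without control B only Prkg2 passed, which was not among the 7, and without mutant C only Rasgef1b passed (adjusted p = 0.0499). The count over all gene names also fell then, from 576 to 21, 20, 13 and 72 in that order. With the acinar marker mean as a covariate, Rasgef1b and Ttc28 still passed (adjusted p = 0.0406 and 0.0432), and the difference of the other 5 lay between -0.95 and 1.67. Without mutant arrays A and B none of the 388 passed in limma (64 had an unadjusted p under 0.05), and the 7 kept their directions, from -2.02 (Ttc28) to 1.80 (Dipk1a).

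Another 14 genes near Nkx6-1 had an adjusted p between 0.05 and 0.1, which made 21 of 388 under 0.1, beside 6.65% of all gene names. Crybb1, a beta-crystallin of the lens, read -4.49, -4.61 and -4.27 in the controls and -5.57, -5.13 and -5.66 in the mutants (difference -1.0 ± 0.18, limma adjusted p = 0.0520). Lrrc8b, a subunit of volume-regulated anion channels, read -3.48, -3.74 and -3.84 against -2.89, -3.08 and -2.83 (0.75 ± 0.14, adjusted p = 0.0548). Both were separated by group on the arrays and just missed the threshold. Sult1b1, a cytosolic sulfotransferase, differed by 1.69 ± 0.31 (adjusted p = 0.0559), with mutant arrays that spread from -3.55 to -2.30. The remaining genes of this range with a common symbol were Hrk, Srrm4 and Mob1b, lower in the mutants, and Gc, Ptpn13, Hsd17b11, Parm1 and Mapk10, higher. Hrk, which encodes a BH3-only activator of apoptosis, was not well above background on any mutant array. Its mutants were therefore at least 1.06-fold lower, with measured means of -6.17 and -7.65 (adjusted p = 0.0722).

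With the genes set aside left out, the 8 tested genes nearest to Nkx6-1 on each side span -1.22 to 1.95 Mb. None of these 16 passed the threshold in limma, though 6 had an unadjusted p under 0.05, beside 2.53% and 20.2% of all gene names. Hpse (-0.98 Mb) and Agpat9 (-0.76 Mb), both set aside, lie within this span and had passed. They differed by -2.32 and 1.24 (limma, adjusted p = 0.0125 and 0.0259). Among the 8 genes on the lower side the differences ran from -0.31 (Helq, a DNA helicase) to 0.28 (Plac8, whose other probe was at -0.48). Cops4, a subunit of the COP9 signalosome, read 2.66, 2.50 and 2.51 in the controls and 2.77, 2.78 and 2.87 in the mutants, and these groups did not overlap (0.25 ± 0.10, adjusted p = 0.248). Helq was lower on every mutant array than on any control array (-0.31 ± 0.11, adjusted p = 0.198), and Abraxas1, a subunit of the BRCA1-A complex, was higher on each (0.20 ± 0.09, adjusted p = 0.291). Its other tested probes read the other way, at -0.26 and -0.49, and the groups of the latter did not overlap (adjusted p = 0.599 and 0.174 over probes). Lin54, Plac8, Coq2, Mrps18c and LOC100045438 overlapped between the groups.

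On the higher side, the gene next to the Nkx6-1 probe was the RIKEN transcript 9430085M18Rik at 0.046 Mb. It read 1.74, 2.50 and 2.53 in the controls and 2.91, 3.15 and 2.83 in the mutants (0.71 ± 0.24, limma adjusted p = 0.180), with control A well below the other controls. Cds1, at 0.164 Mb, makes CDP-diacylglycerol for phosphoinositide synthesis. It read -1.29, -1.73 and -0.97 in the controls and -0.54, -0.78 and -0.62 in the mutants (0.68 ± 0.21, adjusted p = 0.147). Wdfy3, a scaffold protein of selective autophagy, lay beside it and was lower on every mutant array (-0.31 ± 0.12, adjusted p = 0.230), as was its other probe (-0.87 ± 0.18, adjusted p = 0.0634 over probes). Mapk10, the kinase JNK3, read 2.99, 3.12 and 3.04 against 3.39, 3.83 and 3.81, and the tyrosine phosphatase gene Ptpn13 read 0.44, 0.11 and 0.09 against 0.80, 0.72 and 0.90. Neither overlapped between groups, and neither passed (adjusted p = 0.0934 and 0.0862). In all, 8 of these 16 nearest genes had groups that did not overlap, 6 of them higher in the mutants, beside 26.3% of all gene names, 12.3% higher.

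**Figure D3:**
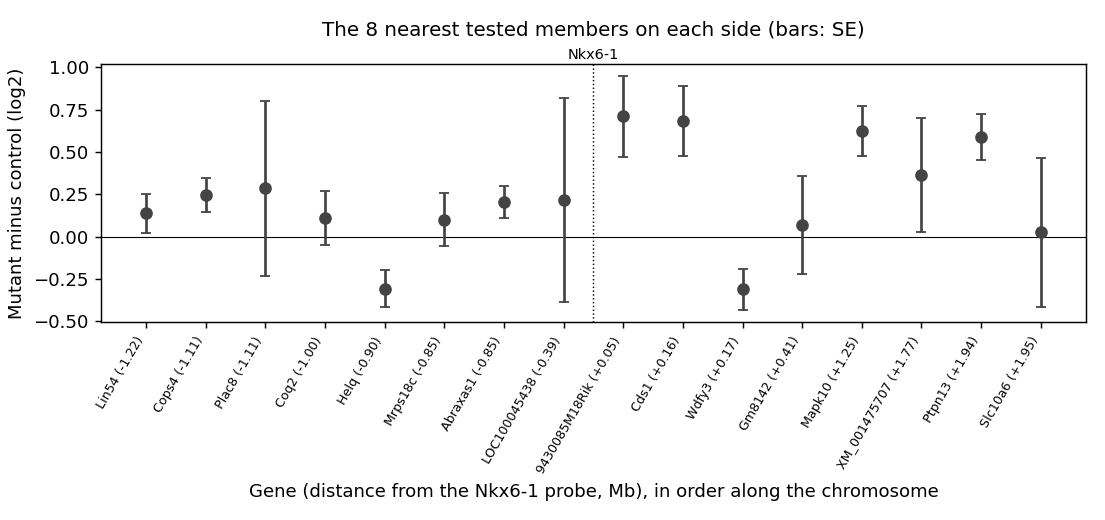
Log2 difference (mutant minus control, bars SE) of the 8 nearest tested genes on each side of Nkx6-1, with the genes set aside left out. Genes are in order along the chromosome with equal spacing, and distances in Mb are in brackets. Hpse and Agpat9, set aside, lie within the span and passed the threshold, but are not drawn. The points lie between -0.31 (Wdfy3) and 0.71 (9430085M18Rik), and none passed the threshold.

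By distance, the 72 tested genes within 5 Mb of Nkx6-1 included 2 that passed, Rasgef1b and Tmem150c (2.78%), and 5 of 75 with the genes set aside (6.67%). Their groups did not overlap for 28 genes (38.9%), 14 in each direction, beside 26.3% of all gene names. An unadjusted p under 0.05 in limma was found for 22 of the 72 (30.6%), beside 20.2% of all. With any single array left out, the share within 5 Mb stayed above that of all gene names. It was 26.4% beside 23.6% without mutant A, 18.1% beside 13.8% without mutant B and 25% beside 13.4% without control B. Without mutants A and B, which leaves only mutant C, the share was not above that of all gene names. Their median absolute difference was 0.29, beside 0.22 over all gene names, while the signed median was 0.05. Their probes also gave a lower signal, with a median control signal of -2.42 beside -1.27, and they varied more between replicates, with a median SD of 0.24 beside 0.21. The part of signal level in the larger differences was not tested. Between 10 and 20 Mb, 3 of 205 genes passed (1.46%), 27.3% did not overlap and the median absolute difference was 0.23. These figures leave out Sult1d1 and Acacb, set aside at -14.10 and 12.61 Mb, which had also passed.

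In bins of 5 Mb, the share of genes whose groups did not overlap was 41.4% of 29 genes just below Nkx6-1 and 37.2% of 43 just above it. In the other bins it was 11.1% of 9 genes, 26.8% of 41 and 27.0% of 37 towards lower coordinates, and 18.9% of 74, 29.7% of 91 and 26.6% of 64 towards higher ones. Thus both bins that touch Nkx6-1 had the highest shares, but genes past the threshold stood in 1 of them only: the bins just below it and at 5 to 10 and 15 to 20 Mb held 2 each and that at 10 to 15 Mb held 1. The median absolute difference was not ordered the same way. It was 0.35 in the thinly filled bin at the lower edge, 0.28 and 0.22 in the next 2, 0.25 and 0.31 beside Nkx6-1, and 0.19 to 0.20 in the 3 bins beyond 5 Mb on the higher side. With background correction by normexp and quantile normalization, the median absolute difference within 5 Mb was 0.17 and that of all gene names 0.16.

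**Figure D4:**
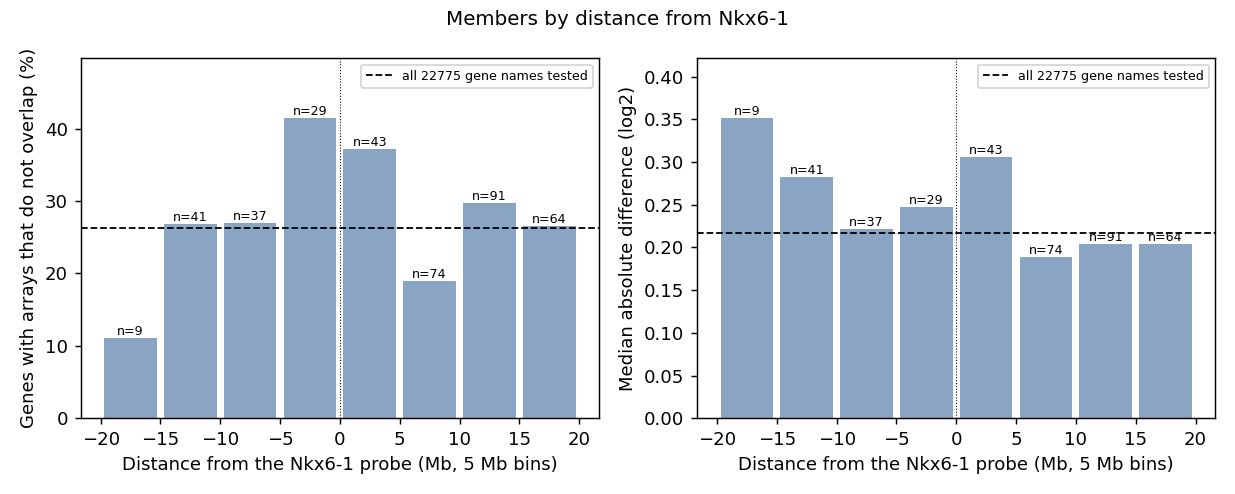
Share of tested genes whose control and mutant arrays do not overlap (left, %) and median absolute log2 difference (right) in 5 Mb bins of distance from the Nkx6-1 probe, with the number of tested genes above each bar and the value over all 22775 gene names as a dashed line. The bars beside Nkx6-1 reach 41.4% and 37.2%, above the line at 26.3%.

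The window has gene clusters that can be described as groups. A list of annotated genes around Nkx6-1, which leaves out predicted, RIKEN and unnamed transcripts between them, had 25 tested members. Of these, 10 had an unadjusted p under 0.05 in limma, beside 20.2% of all gene names. For 7 every mutant array was above every control array and for 6 below, beside 12.3% and 14% of all. The median difference of the list was 0.13. Past the threshold, 1 rose (Rasgef1b) and 1 fell (Tmem150c), beside 2.53% of all gene names. Of the others, Prkg2, a cGMP-dependent protein kinase gene, read -4.30, -5.89 and -4.17 in the controls and -6.16, -6.33 and -6.31 in the mutants. The mutants were lower throughout, but control B was close to them and only 1 mutant array was above background (-1.48 ± 0.46, limma adjusted p = 0.154). Hsd17b13 and Hsd17b11, neighbouring genes for lipid droplet dehydrogenases, differed by 1.63 ± 0.59 and 1.03 ± 0.24 (adjusted p = 0.202 and 0.0890). Hsd17b13 read -2.91, -2.19 and -1.54 in the controls and -1.55, -0.70 and 0.50 in the mutants, which overlapped, and Hsd17b11 read 1.63, 1.45 and 0.77 against 2.18, 2.46 and 2.28, which did not. The other Hsd17b13 probe differed by -0.14 ± 0.32 (adjusted p = 0.839 over probes). Together with Cds1 and Coq2 these belong to a list of 13 tested genes, mostly enzymes of lipid and sterol metabolism, with a median of 0.11. None of the 13 passed, and 5 had an unadjusted p under 0.05 in limma, beside 20.2% of all gene names.

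Among 19 tested genes of islet secretion, calcium handling and energy sensing, Tesc rose and no other passed, beside 2.53% of all gene names, with a median of -0.02. An unadjusted p under 0.05 in limma was found for 6 of the 19, beside 20.2% of all gene names. The differences ran from Prkg2, given above, to Tesc. Gltp, Cplx1 and Aldh2 differed by 0.06 or less in either direction. The probes of Pebp1 disagreed, with -0.02 ± 0.23 for the one used and -0.44 ± 0.11 for the other (adjusted p = 0.0915 over probes), whose groups did not overlap. Trpv4, a calcium-permeable channel gene, differed by -0.65 ± 0.20 (limma, adjusted p = 0.150) and Mapk10 by 0.62. Of 17 transcription and chromatin factors none passed (2 at an unadjusted p under 0.05), with a median of 0.01. Gfi1, a zinc finger repressor, differed by 0.99 ± 0.98 with mutant arrays that ran from -6.02 to -1.96, 2 of 3 above background, and Med13l, a Mediator kinase module subunit, by -0.42 (adjusted p = 0.282). Of 20 receptors and signalling adaptors none passed (3 at an unadjusted p under 0.05, median -0.08), with Fras1 at -0.68 ± 0.22 (adjusted p = 0.164) and Rasal1 at 0.55 ± 0.33 (adjusted p = 0.405) the largest differences.

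Of 10 tested genes of DNA repair and replication none passed in limma (3 at an unadjusted p under 0.05), beside 2.53% and 20.2% of all gene names. The median of the 10 was -0.18. Chek2, a checkpoint kinase gene, was above background on all control arrays and on no mutant array, with measured means of -6.40 and -7.26 (adjusted p = 0.169). Cdc7, a kinase gene of replication origins, was above it on 1 mutant array, and its mutant arrays ran from -7.80 to -4.76 (adjusted p = 0.677). The volume-regulated anion channel subunits differed from each other: Lrrc8b was at 0.75, Lrrc8c at 0.09 and Lrrc8d at -0.31 (adjusted p = 0.0548, 0.729 and 0.189). The 4 beta-crystallin cluster genes had a median of -0.05, Crybb1 at -1.0 and Crybb2 at 0.24 (adjusted p = 0.617). The group medians of the small clusters rest on 2 to 5 tested genes each and follow single members.

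Several clusters of the window were mostly too dim to test. In the stretch of casein, enamel, salivary and sulfotransferase genes 4 of the 14 listed genes on the array were tested, with the sulfotransferase gene Sult1b1 at 1.69 and Smr2 at 0.66 ± 0.69 (adjusted p = 0.619). Of 9 UDP-glucuronosyltransferases 4 were tested, all with a difference below 0 (median -0.37), Ugt2a1 at -0.73 ± 0.41 (adjusted p = 0.380) and Ugt2b37, above background on 1 mutant array, at -0.47 (adjusted p = 0.361). Of the EGF receptor ligands 2 of 4 were tested, Epgn, with measured means of -6.32 and -7.15 and above background on no mutant array, and Btc at -0.24, above it on 1 (limma, adjusted p = 0.120 and 0.720). In the bone and dentin matrix cluster 3 of 5 were tested, and Spp1, the gene of osteopontin, differed by -0.07 ± 0.18 (adjusted p = 0.854) and Ibsp, above background on 1 mutant array, by -0.72 ± 0.20 (adjusted p = 0.121). In the albumin family, Gc, which encodes the vitamin D binding protein and is known from alpha cells, read 3.98, 3.36 and 3.45 in the controls and 4.39, 4.48 and 4.87 in the mutants (0.98 ± 0.22, adjusted p = 0.0807). Afm and Alb differed by 1.00 ± 0.56 and -0.24 ± 0.30 (limma, adjusted p = 0.378 and 0.682). None of these clusters had a member past the threshold, beside 2.53% of all gene names. At most 1 gene in each had an unadjusted p under 0.05 in limma, beside 20.2% of all.

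The clusters of chemokine and interferon-induced genes held no gene past the threshold. None of 5 tested chemokine genes, 5 guanylate-binding protein genes and 8 oligoadenylate synthetase genes listed passed in limma, beside 2.53% of all gene names. None of them had an unadjusted p under 0.05 either, beside 20.2% of all. The medians of these clusters were 0.13, 0.01 and 0.06. The synthetase gene Oas1d, which the list did not hold, read -3.39, -3.91 and -3.65 in the controls and -3.30, -2.74 and -3.10 in the mutants (0.60 ± 0.20, unadjusted p = 0.0235). Its groups did not overlap, and it did not pass over all gene names. Cxcl10 read -1.93, -4.75 and -3.78 in the controls and -1.69, -4.76 and -5.43 in the mutants, so control A and mutant A were the high arrays. Gbp10 was at 2.76, 0.65 and 0.63 against -0.22, 1.97 and 0.21, and Gbp6 at -2.34, -4.96 and -4.75 against -3.84, -2.70 and -2.72, with its other probe at -0.41. Control A and mutant B were among the high arrays for both, and neither passed (adjusted p = 0.657 and 0.530). Pf4 differed by 0.37 (adjusted p = 0.505) and Oasl1 by 0.43 (adjusted p = 0.487). Oas1b, the synthetase that governs flavivirus resistance in mice, also had groups that did not overlap (0.21 ± 0.11, adjusted p = 0.335), while its other probe was at -0.20.

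The 8 genes set aside are given as the background to these counts. Sult1d1, Bmp3, Agpat9 (now Gpat3), Tgfbr3 and Acacb were higher in mutants, by 0.93 to 1.48, and Hpse, Slc26a1 and Pde6b were lower (limma, adjusted p from 0.0125 to 0.0420). Hpse and Slc26a1 differed by -2.32 and -1.69, and Pde6b, not above background on any mutant array, was at least 1.15-fold lower in the main fit. Over 11 alternative settings that kept all 6 arrays, the Pde6b difference ran from -0.695 to -0.024, and it passed in 2 of them. Of the 8 genes, Bmp3, Hpse and Agpat9 lie within 5 Mb of Nkx6-1, at -2.78, -0.98 and -0.76 Mb. At the edges of the window, the 3 tested genes just inside the lower edge differed by -0.19 to 0.35 and those just outside by -0.92 (Pea15b) to 0.63 (Igfbp7). The 3 just inside the upper edge differed by -0.12 to 0.05 and those just outside by 0.04 to 0.11. None of these 12 passed the threshold in limma (3 had an unadjusted p under 0.05), beside 2.53% and 20.2% of all gene names.

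For 85 of the 388 genes more than 1 probe was tested, and in 54 of them all probes differed in the same direction. Over probes instead of gene names, 12 probes of 11 names passed (limma), or 2.47% of those tested, beside 2.75% of all. The additional names were Aff1, Gc, Crybb1 and Sdad1. The Sdad1 probe differed by 2.74 ± 0.47 (adjusted p = 0.0451 over probes), but the brighter one used for the gene by 0.04. The Aff1 probe was dim, from -6.125 to -5.972 in the controls and -6.705 to -6.537 in the mutants. It differed by -0.595 ± 0.10, and the one used by -0.23. The Gc probe differed by 0.735 ± 0.12, and that of Crybb1 is given above.

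Promoters were read from RefSeq on GRCm38.p6, 250 bases before to 50 after each annotated start, and 278 of them belonged to 220 of the 388 tested genes. They were searched on both strands for TAATTA, a core that many homeodomain proteins bind and its own reverse complement, and for TTAATTAC, a longer form that contains it. TAATTA occurred in 13 of the 278 (4.68%), beside 5.29% of all 32851 promoters, and TTAATTAC in 2 (0.719%), those of Mrpl1 and Spp1, beside 0.654% of all. None of the 8 promoters of 6 genes past the threshold held either motif, and Dipk1a had no entry. Shown are the promoters of the genes with the largest called rise and fall among those with an entry, Rasgef1b (chr5:99252878-99253177, minus strand) and Ttc28 (chr5:110879553-110879852, plus), and that of Spp1 (chr5:104435942-104436241, plus), with TTAATTAC in capitals.
Rasgef1b: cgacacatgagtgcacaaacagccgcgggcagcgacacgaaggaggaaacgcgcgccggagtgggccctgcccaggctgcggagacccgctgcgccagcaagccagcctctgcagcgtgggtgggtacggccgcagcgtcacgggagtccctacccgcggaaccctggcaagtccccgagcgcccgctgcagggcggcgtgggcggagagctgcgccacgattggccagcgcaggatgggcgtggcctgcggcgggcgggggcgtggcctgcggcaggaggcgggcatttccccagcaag
Ttc28: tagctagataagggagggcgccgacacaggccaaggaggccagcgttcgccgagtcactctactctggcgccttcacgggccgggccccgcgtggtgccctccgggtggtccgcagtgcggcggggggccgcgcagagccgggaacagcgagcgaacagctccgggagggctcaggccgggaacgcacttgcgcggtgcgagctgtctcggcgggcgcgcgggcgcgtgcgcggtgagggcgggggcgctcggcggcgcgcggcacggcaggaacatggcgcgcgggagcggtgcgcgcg
Spp1: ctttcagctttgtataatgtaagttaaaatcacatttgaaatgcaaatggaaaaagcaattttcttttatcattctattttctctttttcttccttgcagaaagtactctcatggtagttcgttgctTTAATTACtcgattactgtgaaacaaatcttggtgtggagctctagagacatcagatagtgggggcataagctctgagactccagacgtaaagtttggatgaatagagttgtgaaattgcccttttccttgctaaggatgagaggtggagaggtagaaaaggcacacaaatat
The match in Spp1 begins at -123 relative to the annotated start. Neither gene with TTAATTAC passed the threshold, and both overlapped between the groups. Spp1 read 0.72, 0.85 and 0.74 in the controls and 1.01, 0.36 and 0.74 in the mutants. Mrpl1, a mitochondrial ribosomal protein gene, differed by 0.19 ± 0.15 (limma, adjusted p = 0.528). Among the 13 genes with TAATTA the lowest adjusted p were those of Hrk and Mapk10, given above. The absence of these letters from a window of this length says nothing about binding elsewhere.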

How the data were processed

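Scanner files of 6 Agilent arrays, 1 per pooled sample, were analysed. Per the file headers, Feature Extraction (10.7.3.1, per the submitters' processing notes) produced the deposited spot intensity, corrected for background and spatial trends, with no scaling between arrays. The deposited files also hold flags (other values) for saturation, outlier pixels and signal above background. A further deposited table of intensity values, equalized between arrays by a method not given in the sources used here, served as an alternative (column medians 266.95 to 274.55).

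Log2 intensity was averaged per probe, and the 75th percentile of the non-control spots of each array was subtracted. For each gene name the brightest tested probe was used, and levels were not compared between probes. All 22775 tested gene names were fitted with limma 3.58.1 in R 4.3.3 (two-sided, Benjamini-Hochberg adjustment, files read with the data.table package, version 1.17.8). On simulated data with 22775 genes the fit recovered 42 of 100 genes changed by 1 log2 unit and 78 of 100 changed by 2, with 5 false calls. The simulated noise was independent between genes and arrays. These figures therefore leave out variation that many genes share on an array, such as the uneven acinar signal, and may not hold for the real arrays. Coordinates are those of the files, and exon, intron or UTR context was not analysed here. Symbols were updated through RefSeq on GRCm38.p6: 263 of the 388 tested genes matched by accession, 24 by symbol, 9 by older symbol and 92 not. For 2 of those matched, Gm6750 and Gstm1, RefSeq places the gene on another chromosome.

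The rule for named genes took all called genes, the 8 nearest on each side, up to 3 called genes of each list or otherwise the 2 with the largest difference, 3 genes on each side of each edge, and the 8 set aside. Other names were chosen after their values were seen. The members and gene lists were chosen with earlier results of these data known. Where no array of a group rose above background, the fold is a bound against the lowest signal above background on those arrays. Letters A to C were not used as pairs, because no label ties them. Same-letter samples correlated at -0.23, -0.19 and -0.03. The samples of each such pair lay on different slides, so these values cannot show whether the letters mark pairs. Alternatives changed the background correction, scaling, filter, probe, block, threshold, window and arrays used.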

Additional observations from a re-analysis of the deposited data

How the results depend on the processing

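The 3 arrays per group and the raised floor of mutant arrays A and B limit dim genes most. Of the 388 genes near Nkx6-1, 7 passed, and 576 of all gene names. A replicate block on the letters, which no label supports as a pairing, left 0 near Nkx6-1, 0 within 5 Mb and 0 of all (limma, adjusted p under 0.05), with 54, 16 and 3163 at an unadjusted p under 0.05. Leaving out mutant arrays A and B together, an alternative chosen after seeing the data, also left 0, 0 and 0, with 64, 12 and 3864 at an unadjusted p under 0.05. The acinar marker mean as a covariate, also chosen after seeing the data, gave 2, 1 and 137. An adjusted p under 0.1 gave 21, 6 and 1514. Testing every probe gave 11 near Nkx6-1, a window of 10 Mb gave 4, one of 5 Mb gave 2, and putting back the 8 genes set aside gave 15.

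Leaving out each array in turn gave 0 to 7 genes near Nkx6-1, 0 to 2 within 5 Mb (2 with all arrays) and 13 to 418 of all gene names. Under the other settings of background correction, scaling, filter, outlier spots, slide block, variance model and fold minimum the count near Nkx6-1 was 6 to 10. The genes counted were not always the same 7. Hectd4 did not pass with normexp, with normexp and quantile normalization, in the deposited table or without the filter on dim probes. Tmem150c did not pass without that filter. Over the settings that kept all 6 arrays, the Hectd4 difference ran from -0.86 to -0.458. The median difference of -0.035 became 0.021 with normexp, 0.034 without the filter on dim probes and 0.046 within 5 Mb, and lay between -0.058 and -0.012 with single arrays left out. The median absolute difference within 5 Mb, 0.293, became 0.206 with normexp, 0.169 with normexp and quantile normalization, 0.201 in the deposited table, 0.44 without the filter, 0.243 with the filter on all 6 arrays, 0.26 with a slide block and 0.34 without mutants A and B, and lay between 0.258 and 0.308 with single arrays left out. The same median over all gene names was 0.163, 0.163, 0.166, 0.299, 0.198, 0.187 and 0.27 in those 7 settings. With single arrays left out, the difference of XM_001475707 ran from -0.022 to 0.608 and that of Gfi1 from -0.008 to 2.02, both lowest without mutant C and highest without mutant A. The causes of these shifts were not tested.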

Other observations

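One gene of the window, Pla2g1b, encodes a pancreatic phospholipase secreted by acinar cells. It read 2.15, 2.90 and 3.78 in controls A, B and C and 1.87, 4.49 and 6.34 in mutants A, B and C, a difference of 1.29 ± 1.12 (limma, adjusted p = 0.559). The acinar marker mean had the same order of arrays within each group, lowest in A and highest in C.

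With slide as a block in limma, 3 genes passed in addition to the 7 named above: Hrk (adjusted p = 0.0223), Gm5109 and A930005G22Rik. Without control B, Prkg2 passed, the array on which its control signal was lowest.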
